A study of Mus musculus with 7 samples.

Results

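The replication-dependent histone genes encode the core histones H2A, H2B, H3 and H4 and the linker histone H1 that package newly copied DNA. All protein-coding genes of the mm9 annotation whose symbols begin with Hist1h, Hist2h, Hist3h or Hist4h were taken, which gave 67 genes among 21063 protein-coding genes placed in both of the mouse builds used. They comprised 6 H1, 19 H2A, 18 H2B, 11 H3 and 13 H4 genes. The Hist1 genes numbered 55, the Hist2 genes 9 and the Hist3 genes 2, and Hist4h4 stood alone.

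These genes lack introns as a rule, are transcribed mainly in S phase, and produce mRNAs that end in a stem-loop instead of a poly(A) tail. NPAT, the factor that cyclin E and CDK2 phosphorylate, gathers at them in nuclear histone locus bodies. H2A and H2B genes often lie head to head and share the DNA between their starts. Acetylation of H3 at lysine 27 (H3K27ac) marks promoters and enhancers in use, while dimethylation at lysine 4 (H3K4me2) also occurs at those that are poised.

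Peak lists came from ChIP-Seq of mouse cells made in a search for regulatory elements of Sox9, the master gene of cartilage. Primary chondrocytes from rib cartilage gave 2 libraries for H3K27ac and 1 for H3K4me2, and skin gave 1 H3K27ac library from primary dermal fibroblasts as the negative control. Another 2 H3K27ac libraries came from primary rib chondrocytes of WT mice and of mice with the genotype E160(delta/delta);E308(delta/delta), called the double deletion here, in which the Sox9 enhancers E160 and E308 were removed from both alleles by genome editing. By the study's methods both cell types were isolated from newborn mice. Genotypes of the mice behind the other 4 libraries, and the number of animals per library, were not given in the sources used here. The seventh sample, an input library of chondrocytes, was not analysed here.

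The lists held between 19454 and 66355 peaks on chromosomes 1 to 19 and X, with fibroblast H3K27ac the shortest and H3K4me2 the longest. Read depth was unknown, because peak lists carry no totals of reads. Coordinates were those of GRCm38 in replicate 2 and of mm9 in the remaining 5 lists. Of 12 chondrocyte marker genes, 6 and 10 were marked at the transcription start site (TSS), meaning that a peak came within 1 kb of it, in H3K27ac replicates 1 and 2, 8 in H3K4me2, 10 in WT, 10 in the double deletion and 1 in fibroblasts. Col2a1, the main cartilage collagen, had no such peak in replicate 1 or in H3K4me2, and Sox9 had none in replicate 1. Of 8 fibroblast markers, 4 and 6 had a peak in replicates 1 and 2, 6 in H3K4me2, 5 in fibroblasts and 7 each in WT and the double deletion. The collagen genes Col1a1, Col1a2 and Col3a1 had none in fibroblasts and had one in all 4 chondrocyte H3K27ac lists. At these collagen genes the values go against the label of the fibroblast list. The paper, by contrast, reports peaks at Col1a1 and high Col1a1 expression in its dermal fibroblasts. In the list used here the nearest fibroblast peak was 21179 bp from the Col1a1 TSS. The other 5 fibroblast markers, Pdgfra, Dpt, Lum, Thy1 and Twist2, were all marked in fibroblasts. Dpt, a dermal fibroblast gene, was marked in no other list, and the rest were also marked in chondrocyte lists. The 1 chondrocyte marker that was marked in fibroblasts was Sox9. Of the markers of other cells, those of keratinocytes, endothelium and blood (Krt5, Krt14, Cdh5, Pecam1 and Ptprc) had none. Of 3 osteoblast markers, 1 was marked by H3K4me2 and 1 in WT, and of 2 muscle markers 1 was marked, by H3K4me2. Only chondrocyte H3K27ac had replicates, so no p-value is given, and other comparisons have no replicate check.

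Histone genes were marked more often than protein-coding genes at large in every list when peaks within 1 kb of the TSS were counted, and the margin was widest in WT and the double deletion. When the peak had to cover the TSS itself, the order turned around in all 5 H3K27ac lists and held for H3K4me2 (50.7% of histone genes against 45.5% of all genes). The shares of histone genes were then 25.4% in replicate 1, 14.9% in replicate 2, 23.9% in fibroblasts, 35.8% in WT and 23.9% in the double deletion, against 30.3%, 25.8%, 38.4%, 39.8% and 32.6% of all genes. The statements that follow are for the window of 1 kb, unless another is named. In chondrocyte H3K27ac, 40 of 67 histone genes (59.7%) were marked in replicate 1, against 42.7% of all genes. In replicate 2, 36 (53.7%) were marked, against 41.5% of all genes. The mean of both replicates was 56.7% ± 4.22 (SD, n = 2). In WT, 58 histone genes (86.6%, exact 95% interval 76.0 to 93.7) were marked, against 48.5% of all genes. In the double deletion, 56 (83.6%, 72.5 to 91.5) were marked, against 45.6%. In fibroblasts, 40 (59.7%, 47.0 to 71.5) were marked, against 45.9%. H3K4me2 marked 57 (85.1%, 74.3 to 92.6), against 64.1%. The intervals are Clopper-Pearson intervals that cover counting error only and treat genes as independent, although neighbours can share a peak.

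Sharing was common. The 67 TSSs fell into 40 promoter groups when TSSs within 2 kb were joined, and 20 of these groups held more than 1 gene. In WT, 61 distinct peaks marked the 58 genes, and 1 peak reached up to 4 genes. In fibroblasts, 23 distinct peaks marked 40 genes. Counted by promoter group, 25 of 40 were marked in replicate 1, 23 in replicate 2, 35 by H3K4me2, 24 in fibroblasts, 36 in WT and 34 in the double deletion, so the shares stayed close to those of single genes.

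The wide margin in WT and the double deletion was also present among strong peaks. In the 4 other lists the margin depended on how strong peaks were chosen. Peaks were ranked by score within each list, and a rank of 10% means that a peak was among the highest-scoring 10% of its list. The median rank of peaks at histone genes was 39.5% in replicate 1, 56.9% in replicate 2, 49.3% in H3K4me2, 50.1% in fibroblasts, 32.3% in WT and 43.2% in the double deletion. The peaks at all promoters had median ranks of 31.5%, 26.8%, 22.5%, 28.7%, 19.7% and 25.2% in the same order, higher in the list than the histone peaks in each case. With the higher-scoring 50% of each list, histone genes stood below all genes in fibroblasts (22.4% against 36.9%) and in replicate 2 (31.3% against 34.4%), and little above them in H3K4me2 (59.7% against 57.3%) and replicate 1 (38.8% against 33.9%). WT (82.1% against 43.9%) and the double deletion (73.1% against 39.1%) kept a wide margin. With the top 19454 peaks of every list, which is the whole fibroblast list, histone genes stayed above all genes in the H3K27ac lists. The shares were 56.7% against 39.8% in replicate 1, 52.2% against 41.3% in replicate 2 and 59.7% against 45.9% in fibroblasts. They were 85.1% against 45.4% in WT and 80.6% against 43.9% in the double deletion. H3K4me2 then marked 32.8% of histone genes and 47.8% of all genes, the opposite order to that in the whole list.

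**Figure D1:**
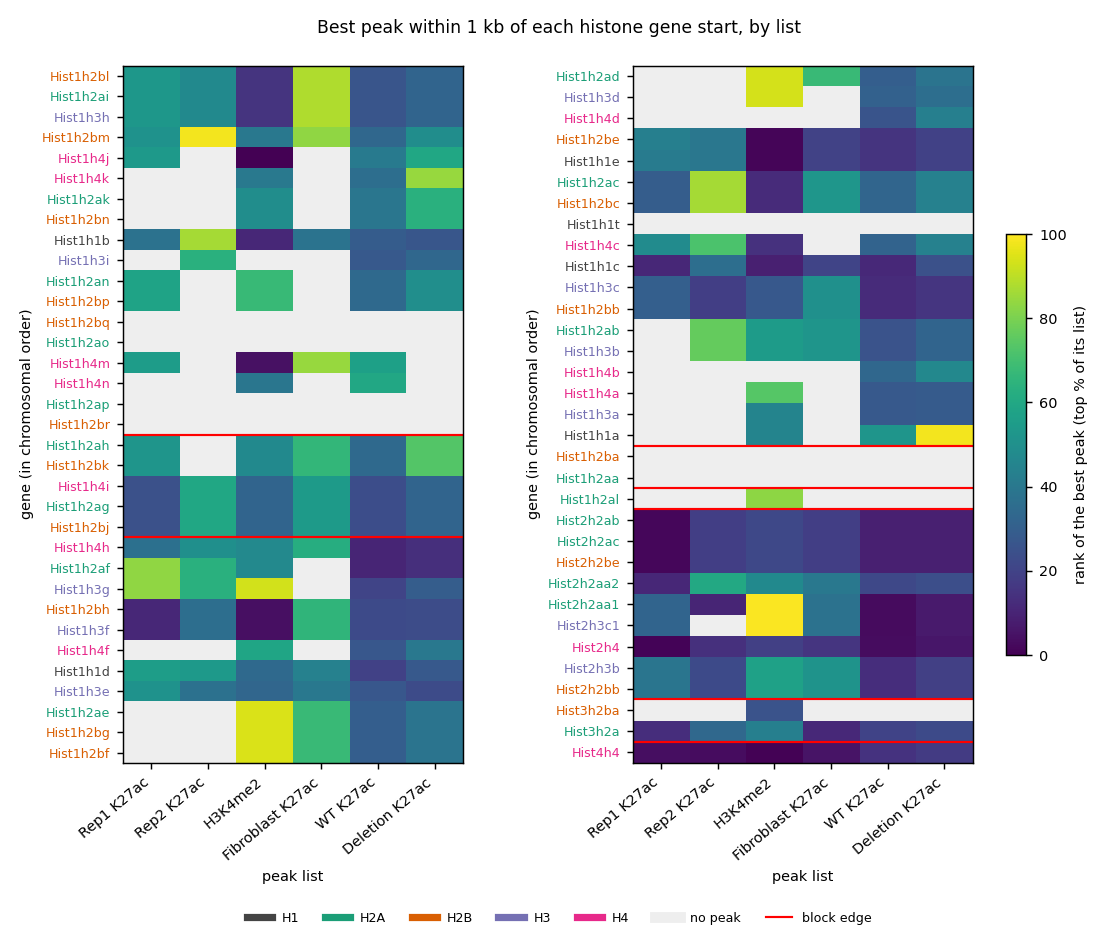
Each row is 1 of the 67 histone genes in chromosomal order (symbol coloured by histone type), each column is a peak list, and colour gives the rank of the best peak within 1 kb of the TSS as a top percent of its list. Grey cells have no peak. The columns of WT and the double deletion are nearly filled, and 7 rows are empty throughout.

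No histone type stood clearly apart from the others within a list. All 13 H4 genes were marked in WT, 11 in the double deletion and 11 by H3K4me2, but only 7 in replicate 1, 5 in replicate 2 and 5 in fibroblasts. All 11 H3 genes were marked in WT and in the double deletion, 10 by H3K4me2, 7 in replicate 1, 8 in replicate 2 and 7 in fibroblasts. Of 6 H1 genes, 4 were marked in each of replicate 1, replicate 2 and fibroblasts and 5 in each other list. The 19 H2A genes were marked at 11, 10, 16, 12, 15 and 15 promoters in replicate 1, replicate 2, H3K4me2, fibroblasts, WT and the double deletion, and the 18 H2B genes at 11, 9, 15, 12, 14 and 14. The intervals of the 5 types overlapped in every list. For H4 in replicate 2 the interval ran from 13.9 to 68.4% and for H3 from 39.0 to 94.0%.

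**Figure D2:**
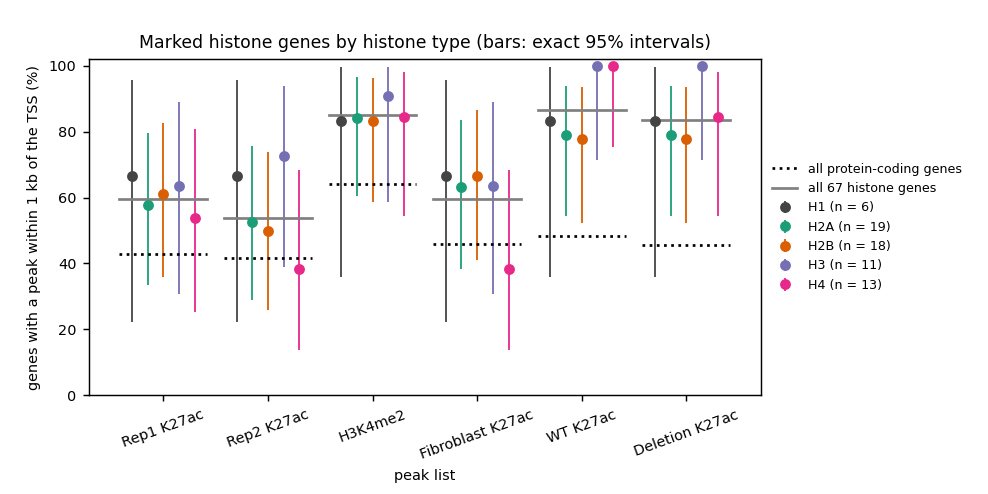
The share of genes with a peak within 1 kb of the TSS (%) is shown for each histone type in each list, with exact 95% binomial intervals. Grey lines give all 67 histone genes and dotted lines all protein-coding genes. In WT all H3 and H4 genes are marked, and in every list the intervals of the types overlap.

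The Hist2 cluster was marked more fully than Hist1. All 9 Hist2 genes on chromosome 3 were marked in every list except replicate 2, which marked 8. The exception there was Hist2h3c1, an H3 gene whose annotated start moved by 1131 bp relative to its neighbours between mm9 and GRCm38, so its value in replicate 2 is uncertain. The mm9 start of Hist2h3c1 lies beside that of Hist2h2aa1, and both were given the same peak in the other 5 lists. Hist4h4, an H4 gene on chromosome 6, was marked in every list. Its peak ranked in the top 3.68% of replicate 1, 3.33% of replicate 2, 0.648% of H3K4me2, 5.4% of fibroblasts, 14.5% of WT and 17.4% of the double deletion, and it was the best-ranked histone peak in replicate 2 and in fibroblasts.

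Hist2h4, the H4 gene of the Hist2 cluster, had a peak in the top 1.15% of replicate 1, 14.0% of replicate 2, 19% of H3K4me2, 15.6% of fibroblasts, 3.48% of WT and 5.95% of the double deletion. It was the best-ranked histone gene in replicate 1 and in the double deletion. Hist2h2aa1, an H2A gene, shared with Hist2h3c1 the best-ranked peak in WT at 2.92% and stood at 7.19% in the double deletion, 10.4% in replicate 2, 32% in replicate 1, 37.8% in fibroblasts and 99.5% in H3K4me2. The H3K4me2 value was near the bottom of that list, while the H3K27ac ranks of the same promoter were high in 3 lists. The neighbouring genes Hist2h2ab, Hist2h2ac and Hist2h2be shared 1 peak of 3440 bp in replicate 1 and 1 of 3232 bp in fibroblasts, the widest histone peaks of those lists. Its ranks were 1.76% in replicate 1, 18.4% in replicate 2, 21.6% in H3K4me2, 18.4% in fibroblasts, 8.8% in WT and 8.94% in the double deletion. The widest histone peak of replicate 2, of 2748 bp, lay at Hist2h4.

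Both Hist3 genes lie on chromosome 11 and differed in their marks. Hist3h2a, an H2A gene, was marked in all 6 lists, with ranks of 13.2% and 33.9% in replicates 1 and 2, 43.2% in H3K4me2, 11.7% in fibroblasts, 20.1% in WT and 22.3% in the double deletion. Hist3h2ba, an H2B gene, was marked by H3K4me2 alone, with a rank of 25.7%, and the nearest H3K27ac peak in the other lists was between 5534 and 5763 bp from its TSS.

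Among the 55 Hist1 genes on chromosome 13, 29 were marked in replicate 1, 26 in replicate 2, 45 by H3K4me2, 29 in fibroblasts, 47 in WT and 45 in the double deletion. Leaving out Hist1h2al and the testis genes Hist1h1t, Hist1h2ba and Hist1h2aa kept 51. Of these, 92.2% were marked in WT, 88.2% in the double deletion and 86.3% by H3K4me2. The shares were 56.9% in replicate 1 and in fibroblasts and 51.0% in replicate 2. These genes formed 3 main blocks: 18 genes at chr13:21807632-21929399, 5 genes at chr13:22126982-22135545 and 29 genes at chr13:23622919-23856283 (mm9). The first block held 9, 6, 13, 6, 14 and 12 marked genes in replicate 1, replicate 2, H3K4me2, fibroblasts, WT and the double deletion. The second, of 5 genes, was fully marked in every list but replicate 2, which marked 3. The third, which holds 5 of the 6 H1 genes, had 15, 17, 26, 18, 28 and 28 marked.

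**Figure D3:**
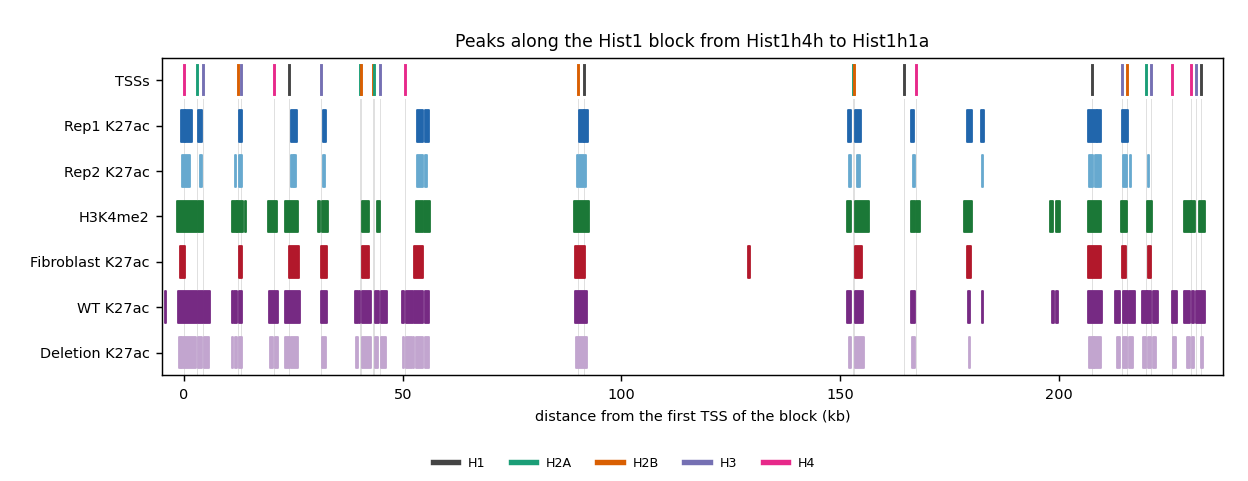
Peaks of each list (coloured bars) and TSSs of the 29 genes (coloured ticks, by histone type) are drawn along the third Hist1 block, with the distance from its first TSS in kb in the build of each list. Peaks narrower than 0.25 kb are drawn 0.25 kb wide. Peaks cluster at the TSSs, and WT and the double deletion have 37 and 36 peaks in the block against 18, 21, 27 and 13 in replicate 1, replicate 2, H3K4me2 and fibroblasts.

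Within this block, 13 of 18 replicate 1 peaks, 17 of 21 replicate 2 peaks, 22 of 27 H3K4me2 peaks, 10 of 13 fibroblast peaks, 30 of 37 WT peaks and 31 of 36 double-deletion peaks lay within 1 kb of a histone TSS. Peaks covered 48.8 kb of it in WT and 34.9 kb in the double deletion, against 19.5 kb in replicate 1, 13.4 kb in replicate 2, 18.9 kb in fibroblasts and 43.5 kb for H3K4me2. Hist1h4h and Hist1h2af, at its left end, shared the widest histone peak of H3K4me2 (4513 bp), WT (4212 bp) and the double deletion (3278 bp).

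Few other genes of the Hist1 region were marked. Between the first and the last Hist1 gene, Hist1h2al left out, lay 47 other protein-coding genes, of which 4 were marked in replicate 1, 2 in replicate 2, 8 by H3K4me2, 4 in fibroblasts, 5 in WT and 4 in the double deletion. They included 32 Vmn1r genes, which encode vomeronasal receptors, and 1 of these had a peak in any list. Zfp322a and Abt1 were marked in all 6 lists. No other protein-coding gene lay between the Hist2 genes. Hist1h2al, which lies on chromosome 13 far from the other Hist1 genes and is a transcribed pseudogene in RefSeq, had a peak in H3K4me2 only.

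Of the 67 genes, 30 (44.8%) were marked in all 6 lists, against 34.6% of all genes. They included 8 of 9 Hist2 genes, 20 of 55 Hist1 genes, Hist3h2a and Hist4h4, and by type 4 H1, 8 H2A, 9 H2B, 5 H3 and 4 H4 genes. Hist1h1c, a linker histone gene, had ranks of 11.1% and 36.1% in replicates 1 and 2, 8.98% in H3K4me2, 20.4% in fibroblasts, 11.5% in WT and 24.8% in the double deletion. Hist1h2be and Hist1h1e shared an H3K4me2 peak in the top 1.45% of that list, and their H3K27ac ranks lay between 14.9% and 43.0% in the other lists.

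In no list was a peak found at 7 genes (10.4%, against 33.5% of all genes). These were Hist1h2bq, Hist1h2ao, Hist1h2ap and Hist1h2br of the first block and Hist1h1t, Hist1h2ba and Hist1h2aa, the linker histone, H2B and H2A of the testis. Around Hist1h1t, which lies inside the third block, the nearest peaks were 1526 bp away in replicate 1, 1871 in replicate 2, 1509 in H3K4me2, 9785 in fibroblasts, 1408 in WT and 1798 in the double deletion. Hist1h2ba and Hist1h2aa, a head-to-head pair, had no peak nearer than 5073 bp in any list. Hist1h4c, the gene next to Hist1h1t, was marked in 5 lists.

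The other 4 unmarked genes have copies. The DNA within 1 kb of each TSS was cut into all 32-base words, and a word was called repeated when it occurred again anywhere in the mm9 genome on either strand. All words around Hist1h2bq, Hist1h2ao, Hist1h2ap and Hist1h2br were repeated (100%). By contrast, 0% were repeated at Hist1h1t and 10.7% at Hist1h2ba and Hist1h2aa. The median over the 67 genes was 25.2%, and 24.3% for the 30 genes marked in all lists. Over the 18 regulators of histone mRNA described further down it was 0.609%, and over 10 replication-independent histone genes 1.70%. Read pairs that lie wholly within identical copies have no unique place in the genome, and how they were filtered is not given in the sources used here. By the methods the reads were paired ends of 100 bases, so a repeated 32-base word does not by itself make a read ambiguous. The part of the copies in the missing peaks was not tested. The promoters of Hist1h2bq and Hist1h2br are shown to give the copies letter by letter. These are the 150 bases before the RefSeq start in GRCm38.p6 (chr13:21810200-21810349, minus strand and chr13:21833593-21833742, plus strand), 5′ to 3′ in the direction of transcription, with motif matches in capitals (CCAAT on either strand). They were identical at 150 of 150 bases.
Hist1h2bq: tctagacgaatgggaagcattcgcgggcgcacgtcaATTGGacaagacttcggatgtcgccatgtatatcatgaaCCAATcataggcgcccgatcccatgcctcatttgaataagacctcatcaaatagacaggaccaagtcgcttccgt
Hist1h2br: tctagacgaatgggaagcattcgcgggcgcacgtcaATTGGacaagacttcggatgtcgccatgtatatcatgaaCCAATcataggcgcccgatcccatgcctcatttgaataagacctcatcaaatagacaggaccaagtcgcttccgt

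The replicates of chondrocyte H3K27ac shared 33 marked histone genes and both left 24 unmarked. Another 10 genes (14.9%) were marked in 1 replicate only, against 10.2% of all genes. Of these, Hist1h4j, Hist1h2an, Hist1h2bp, Hist1h4m, Hist1h2ah, Hist1h2bk and Hist2h3c1 were marked in replicate 1, and Hist1h3i, Hist1h2ab and Hist1h3b in replicate 2. Their ranks were between 32% and 76.3% in the list that marked them, and Hist2h3c1 is the gene with the shifted start. Hist1h4j, an H4 gene, had the best-ranked histone peak of H3K4me2 (0.164%), a replicate 1 peak at 53.7%, and a nearest replicate 2 peak 12179 bp away.

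H3K27ac in chondrocytes and fibroblasts were compared because the study used fibroblasts as the negative control, and the outcome depended on which chondrocyte library was used. The replicates differed from fibroblasts at few histone genes, and the WT library at many. Marked in both chondrocyte replicates and not in fibroblasts were 3 of 67 genes (4.48%, 0.933 to 12.5), against 1.65% of all genes: Hist1h2af (H2A), Hist1h3g (H3) and Hist1h4c (H4). Hist1h2af and Hist1h3g shared a peak with ranks of 83.3% and 63.5% in replicates 1 and 2, and the nearest fibroblast peaks were 2667 and 4183 bp away. Hist1h4c had ranks of 48.3% and 71.8%, and the nearest fibroblast peak was 11759 bp away. At all 3 the chondrocyte peaks were weak or moderate within their lists. The reverse, a fibroblast peak and none in either replicate, was found at 4 genes (5.97%, 1.65 to 14.6), against 3.72% of all genes. These 4, Hist1h2ae, Hist1h2bg, Hist1h2bf and Hist1h2ad, are adjacent H2A and H2B genes and shared a single fibroblast peak of 1650 bp with a rank of 67.8%, so they are 1 observation and not 4. Fibroblasts had 1 library, and the set changed in size with the setting, from 0 to 7 genes for the first comparison and from 1 to 4 for the second over the alternative windows and peak selections. With the WT library in place of the replicates, 18 genes (26.9%, 16.8 to 39.1) were marked in chondrocytes and not in fibroblasts, against 4.64% of all genes, and 0 the other way, against 2.09%. These 2 lists differ in form. The lowest score is 50 in fibroblasts, with no q-value given, and 20 in WT, with a smallest −log10 q of 2.05. Cell type and peak calling cannot be told apart in this comparison. Of the genes marked in WT, fibroblasts also marked 40 of 58 histone genes (69.0%) and 90.4% of all genes. Leaving out replicate 2 gave 6 genes in replicate 1 alone and 6 in fibroblasts alone. The same 2 replicates enter this comparison and the others against H3K4me2, WT and the double deletion.

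H3K4me2 in chondrocytes was found at every histone gene that carried H3K27ac in both replicates: 0 of 67 had H3K27ac in both and no H3K4me2 (exact upper bound 5.36%), against 0.646% of all genes. H3K4me2 without H3K27ac in either replicate was found at 15 genes (22.4%, 13.1 to 34.2), against 19.0% of all genes. The 15 were Hist1h4k, Hist1h2ak, Hist1h2bn, Hist1h4n, Hist1h4f, Hist1h2ae, Hist1h2bg, Hist1h2bf, Hist1h2ad, Hist1h3d, Hist1h4a, Hist1h3a, Hist1h1a, Hist1h2al and Hist3h2ba. With WT in place of the replicates, the genes with H3K4me2 and no H3K27ac fell to 2 (2.99%, against 16.8% of all genes), and those with H3K27ac and no H3K4me2 numbered 3 (4.48%, against 1.09%). The H3K4me2 list held 66355 peaks and the H3K27ac replicates 25580 and 20450. With the top 19454 peaks of each list the counts became 11 genes with H3K27ac alone and 1 with H3K4me2 alone, the opposite order. Shares of all genes are not given for these 2 counts. With WT in place of the replicates at this setting, 36 histone genes (53.7%) had H3K27ac alone, against 11.1% of all genes. H3K4me2 alone was then found at 1 (1.49%), against 13.5% of all genes. The share of all genes with H3K27ac alone thus also rose when H3K4me2 was cut to this length.

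WT and double-deletion chondrocytes differed at 2 histone genes within the window of 1 kb, about the share of all genes. Marked in WT and not in the double deletion were 2 genes (2.99%, 0.364 to 10.4), against 2.83% of all genes, and the reverse was found at 0 genes (upper bound 5.36%), against 0.00475% of all genes. The 2 genes were the H4 genes Hist1h4m and Hist1h4n. Hist1h4m had a WT peak with a rank of 57.0% and Hist1h4n one with a rank of 59.8%, and the nearest double-deletion peaks were 23297 and 43747 bp away. Hist1h4m was also marked in replicate 1 (55.1%), H3K4me2 (4.45%) and fibroblasts (84.4%), and Hist1h4n in H3K4me2 (39.3%). Repeated words made up 95.8% of the window around Hist1h4m and 95.7% around Hist1h4n. Their promoters are shown because this comparison turns on them (chr13:21811596-21811745, plus strand and chr13:21832198-21832347, minus strand, GRCm38.p6, RefSeq, TATAAA in capitals). Moved by 1 base against each other, they were identical at 149 of 149 bases.
Hist1h4m: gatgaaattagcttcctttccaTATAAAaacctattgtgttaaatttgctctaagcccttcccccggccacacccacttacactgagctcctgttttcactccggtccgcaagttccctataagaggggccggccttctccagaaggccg
Hist1h4n: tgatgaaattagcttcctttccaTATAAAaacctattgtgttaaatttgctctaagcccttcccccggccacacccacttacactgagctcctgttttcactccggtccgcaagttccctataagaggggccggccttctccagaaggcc

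The count of genes in WT alone depended on the setting. It was 4 (5.97%, against 2.94% of all genes) within 2 kb, 6 (8.96%, against 4.86%) with the higher-scoring 50% of peaks and 8 (11.9%, against 7.4%) with the TSS covered, each a higher share than over all genes. Leaving out the 9 genes whose windows were over 50% repeated, a filter chosen after the data were seen that removes both Hist1h4m and Hist1h4n, gave 0 of 58. The WT list held 33369 peaks and the double-deletion list 25213. Ranks are percents of each list's own length, so a peak equally far from the top has a larger percent in the shorter list. Among the 56 genes marked in both, the percent was larger in the double deletion at 54 (96.4%). It was also larger at 90.4% of the 9610 protein-coding genes marked in both. This shift was thus common to nearly all promoters, and a shorter list gives a shift in this direction by itself. Hist1h1a stood at 52.3% in WT and 98.1% in the double deletion, Hist1h4k at 36% and 84.4%, and Hist1h4h at 10.2% and 13.3%. The median fold enrichment over local background at histone peaks was 11.3 for WT and 8.03 for the double deletion, and over all promoter peaks 17.2 and 11.8. With 1 library each, these values compare 2 libraries.

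A further group stood out after the values were seen. In WT and in the double deletion, but in neither chondrocyte replicate, 14 histone genes were marked (20.9%, 11.9 to 32.6), against 2.13% of all genes. The reverse, both replicates and neither of the other pair, was found at 0 genes (upper bound 5.36%), against 0.161% of all genes. All 4 libraries are H3K27ac by their labels, and of primary rib chondrocytes by the study's text. The 14 comprised 5 H4 genes (Hist1h4k, Hist1h4f, Hist1h4d, Hist1h4b and Hist1h4a), Hist1h2ak, Hist1h2ae and Hist1h2ad of H2A, Hist1h2bn, Hist1h2bg and Hist1h2bf of H2B, Hist1h3d and Hist1h3a of H3, and the linker histone gene Hist1h1a. They lay in 8 promoter groups, and 11 of them were in the third block and 3 in the first.

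Their WT peaks were of middle rank, between 26.0% and 52.3% with a median of 30.0%, and fold enrichment was between 6.68 and 14.5. The other 42 genes marked in both WT and the double deletion had a median WT rank of 22.5% and fold enrichments between 8.12 and 40.5. For the 14, the nearest replicate 1 peak was between 2650 and 18966 bp from the TSS and the nearest replicate 2 peak between 2714 and 27698 bp. H3K4me2 marked 12 of the 14 and fibroblast H3K27ac 4. The group shrank from 14 to 4 genes (5.97%, against 3.47% of all genes) when the peak had to cover the TSS. With the top 19454 peaks of every list, 12 genes remained in this group and no gene joined it (17.9%, against 1.96% of all genes). When only the higher-scoring 50% of peaks were kept, the group held 19 genes (28.4%, against 3.09%). Their windows held a median of 21.8% repeated words, close to the 24.3% of genes marked in all lists. The smallest −log10 q values on file were 1.33 for replicate 2, 2.05 for WT and 2.01 for the double deletion. Replicate 1 gave no q-value, and the methods name a single q-value setting for all libraries. Preparation, processing and any other difference between the pairs of libraries cannot be told apart.

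Where the peaks lay around the TSS also set the histone genes apart. Most promoter peaks of protein-coding genes covered the TSS: among marked genes, 71.0% did in replicate 1, 62.1% in replicate 2, 70.9% in H3K4me2, 83.7% in fibroblasts, 82.2% in WT and 71.5% in the double deletion. Among marked histone genes the shares were 17 of 40 (42.5%), 10 of 36 (27.8%), 34 of 57 (59.6%), 16 of 40 (40%), 24 of 58 (41.4%) and 16 of 56 (28.6%), lower in every list. In WT, 27 histone genes (46.6%) had peaks on both sides of the TSS with a gap over it, against 4.5% of all marked genes, and in the double deletion 28 (50%), against 7.69%. The 13 head-to-head pairs start only 168 to 693 bp apart, so a peak after one start can count as a peak before the other. Neighbours such as Hist1h2ae and Hist1h2bg were thus counted from the same peaks, and the part of this in the difference was not tested. Among marked H1 genes the TSS was covered at 5 of 5 in WT, 5 of 5 in H3K4me2, 4 of 5 in the double deletion, 3 of 4 in replicate 1, 3 of 4 in fibroblasts and 1 of 4 in replicate 2, where 2 had peaks on both sides.

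Along the direction of transcription, the gap fell at or just after the TSS. In WT, 79.1% of the 67 genes had a peak at 550 bp after the TSS but 29.9% at 150 bp after it, whereas over all genes the share was highest, at 45.1%, at 200 bp. In replicate 1 the share was 40.3% at -600 bp and 16.4% at 200 bp, in H3K4me2 65.7% at -700 bp and 34.3% at 200 bp, and in fibroblasts 37.3% at -550 bp and 20.9% at 200 bp. In replicate 2 it was 31.3% at -700 bp and 10.4% at 300 bp, and in the double deletion 70.1% at 500 bp and 23.9% at the TSS. The share near the TSS was thus below the flanks in all 6 lists, in both marks and both cell types. Over all genes H3K4me2 dipped there too, with 49.9% at -250 bp, 45.3% at -50 bp and 55.6% at 550 bp. For that mark the dip itself was therefore not particular to histone genes.

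**Figure D4:**
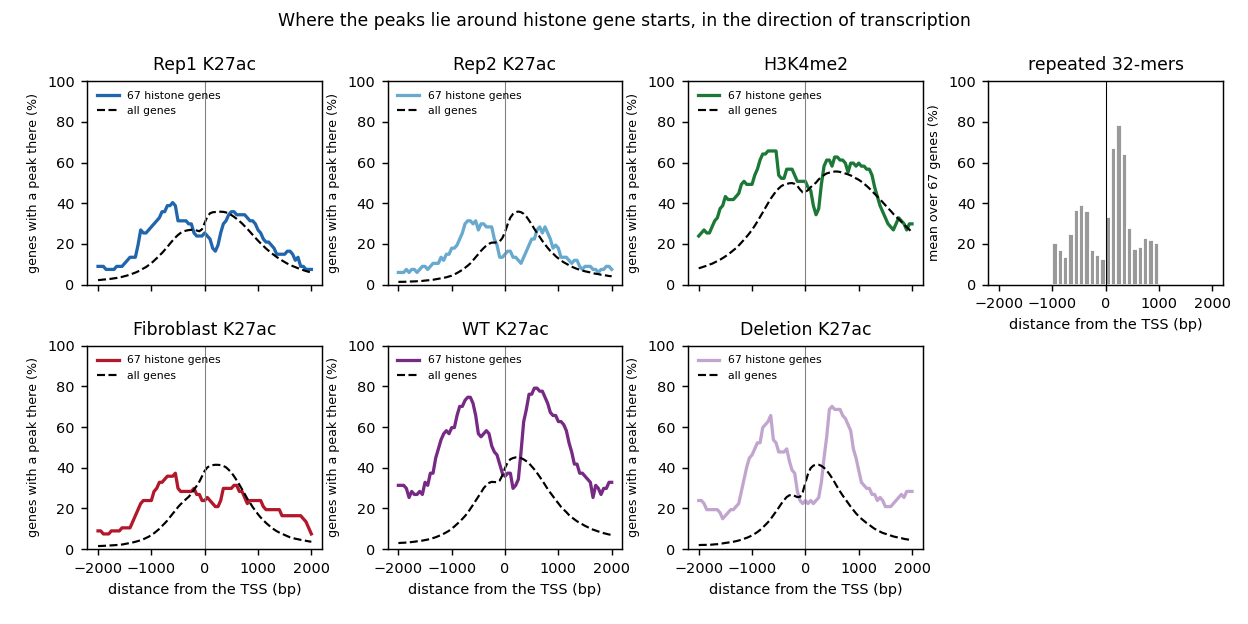
For each list, the share of genes with a peak covering each position from 2000 bp before to 2000 bp after the TSS (%) is drawn for the 67 histone genes (coloured) and all 21063 protein-coding genes (dashed). The bar panel gives the mean share of repeated 32-base words over the 67 genes by distance from the TSS, in bins of 100 bp. The coloured lines are lowest near the TSS at 200 bp in replicate 1, H3K4me2 and fibroblasts, 300 bp in replicate 2, 150 bp in WT and equally at -50, 50 and 150 bp in the double deletion, and the highest bar, of 78.7%, is at 250 bp.

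Repeated sequence was densest just after the TSS, which overlapped the gap without matching it in every list. In the double deletion the share with a peak was as low before the TSS (22.4% at -50 bp), where few words were repeated, as after it (23.9% at 200 bp). The part of repeats in the gap was not tested. The mean share of repeated words over the 67 genes was 78.7% in the bin centred 250 bp after the TSS, 67.3% at 150 bp and 64.0% at 350 bp, against 12.7% at -50 bp and 17.4% at 550 bp. By type, the median share from 100 to 400 bp was 28.2% for H1, 85.3% for H2A, 80.2% for H2B, 89.3% for H3 and 63.0% for H4 genes. The genes were then divided at 50% repeated words in that stretch, a division chosen after the gap had been seen. Of the 14 genes under 50%, 12 were marked in WT and 11 of these had a peak over the position 200 bp after the TSS. Of the 53 genes at 50% or more, 46 were marked in WT and 10 had a peak there. The counts were 10 of 12 and 6 of 44 in the double deletion, 9 of 10 and 2 of 30 in replicate 1, 7 of 10 and 2 of 26 in replicate 2, 11 of 11 and 12 of 46 in H3K4me2 and 10 of 10 and 4 of 30 in fibroblasts. Marked genes with few repeats had a peak over this position in most cases, and those with many had one in few cases. The same division also separated the genes at the TSS itself. There 11 of 12 and 13 of 46 had a peak in WT, 8 of 12 and 8 of 44 in the double deletion, and 9 of 10 and 8 of 30 in replicate 1. Farther out the groups were closer. In WT 10 of 12 and 38 of 46 had a peak at -600 bp, and 11 of 12 and 42 of 46 at 600 bp. In the double deletion the counts were 7 of 12 and 29 of 44 at -600 bp, and 9 of 12 and 37 of 44 at 600 bp. Repeats were counted in mm9 for all lists. The 14 genes included Hist4h4, Hist2h4, Hist2h2ab, Hist2h2be, Hist2h2bb, Hist3h2a, Hist1h2be, Hist1h3f, Hist1h4d, Hist1h2aa and the H1 genes Hist1h1a, Hist1h1b, Hist1h1c and Hist1h1t, so this division also follows cluster and type.

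**Figure D5:**
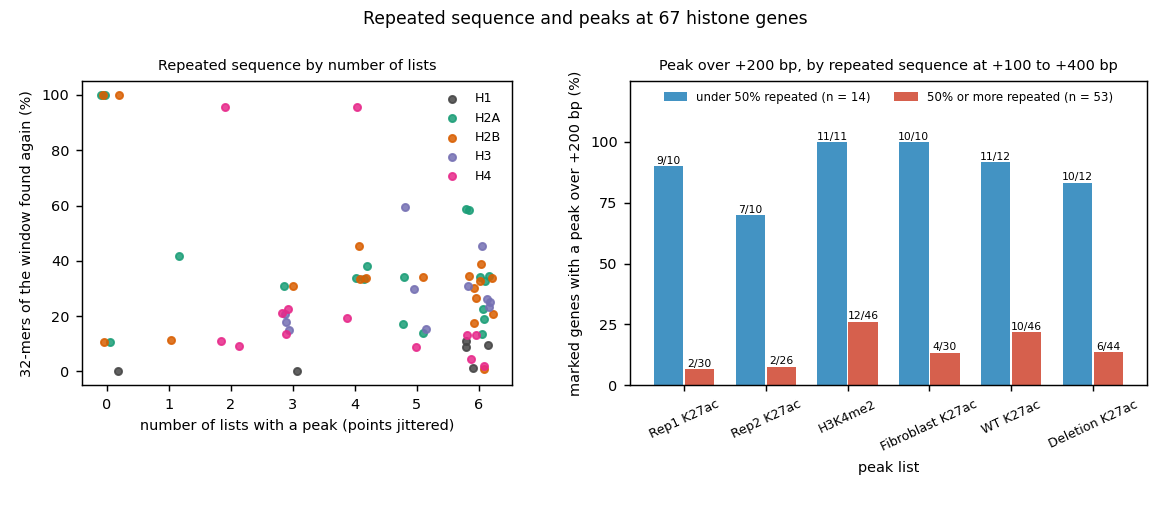
Left, the share of 32-base words around each TSS that recur in the genome (%) against the number of lists that mark the gene, coloured by histone type. Right, the share of marked genes with a peak over the position 200 bp after the TSS (%), for genes with under 50% and with 50% or more repeated words from 100 to 400 bp, with counts above the bars. The 4 genes at 100% are marked in no list, and in WT 11 of 12 marked genes with few repeats have a peak over that position against 10 of 46 with many.

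The promoters shared sequence features that the choice of genes did not use. RefSeq gives a promoter of 300 bases (250 before to 50 after the start, GRCm38.p6) for 61 of the 67 genes, and not for Hist1h3f, Hist1h2bc, Hist1h3a, Hist1h2al, Hist2h2be and Hist2h4. A set of 5 motifs was searched on both strands. The TATA box was searched as TATAAA. The CCAAT box, the site of the factor NF-Y, was searched as its own letters. The octamer bound by the factor OCT1 was searched as ATTTGCAT. The H1 box of linker histone promoters was searched as AAACACA. An E2F-like site was searched as TTTNGCGC. No motif contains another, but the TATA box and the H1 box can share letters at their ends. The TATA box was found in 57.4% of the histone promoters and 12.9% of 16403 protein-coding promoters, the CCAAT box in 85.2% and 39.3%, the octamer in 21.3% and 1.72%, the H1 box in 14.8% and 6.15% and the E2F-like site in 23.0% and 1.83%. Their GC content was lower, with a median of 45.3% against 57.0%. Matches were counted at any position in the 300 bases. A match is a description of letters and not evidence of binding.

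Of the motifs, 4 differed in share between histone types. The TATA box was in 4 of 6 H1, 11 of 18 H2A, 8 of 16 H2B, 4 of 9 H3 and 8 of 12 H4 promoters. CCAAT was in all H1, H2A, H2B and H3 promoters searched and in 3 of 12 H4 promoters. The octamer was in 7 of 18 H2A and 6 of 16 H2B promoters and in no other type, and the E2F-like site in 7 of 18 and 7 of 16. Head-to-head pairs hold the same DNA in both windows, so these counts are not independent. The mm9 annotation gave 12 head-to-head pairs of H2A with H2B, and 9 of the pairs were marked in WT, in the double deletion and by H3K4me2, 6 in replicate 1, 4 in replicate 2 and 7 in fibroblasts. The H1 box was in 5 of 6 H1 promoters, Hist1h1a being the exception, and also in 2 of 18 H2A and 2 of 16 H2B promoters. The TATA box was in 12 of 13 promoters of the group marked in WT and the double deletion and in neither replicate, in 10 of 26 of the genes marked in all lists and in 2 of 7 of the genes marked in none. In the first group the matches were scattered, from -250 (Hist1h4f) to 41 (Hist1h4a) relative to the start. That group also holds the head-to-head pairs Hist1h2ak and Hist1h2bn, Hist1h2ae and Hist1h2bg, and Hist1h2bf and Hist1h2ad, whose windows overlap. These counts therefore do not describe a TATA box at a set place.

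Promoters of 3 linker histone genes and 2 H2B genes are shown, since each set spans genes that differ in their marks. All are the 150 bases before the RefSeq start in GRCm38.p6, 5′ to 3′ in the direction of transcription, with matches to the motifs in capitals. Hist1h1c (chr13:23738657-23738806, plus strand) was marked in all 6 lists, Hist1h1a (chr13:23763518-23763667, plus strand) in 3 and Hist1h1t (chr13:23695661-23695810, plus strand) in none. Hist1h2bj (chr13:22043048-22043197, plus strand) was marked in all 6 lists and Hist1h2bg (chr13:23571250-23571399, plus strand) in 4.
Hist1h1c: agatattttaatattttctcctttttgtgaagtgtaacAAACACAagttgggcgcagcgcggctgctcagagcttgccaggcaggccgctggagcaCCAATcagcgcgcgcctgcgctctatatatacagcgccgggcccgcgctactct
Hist1h1a: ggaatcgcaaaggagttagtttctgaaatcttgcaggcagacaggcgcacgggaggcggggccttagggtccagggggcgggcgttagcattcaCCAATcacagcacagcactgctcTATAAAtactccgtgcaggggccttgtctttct
Hist1h1t: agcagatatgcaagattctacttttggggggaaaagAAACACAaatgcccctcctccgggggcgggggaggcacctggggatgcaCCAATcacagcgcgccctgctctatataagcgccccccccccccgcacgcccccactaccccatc
Hist1h2bj: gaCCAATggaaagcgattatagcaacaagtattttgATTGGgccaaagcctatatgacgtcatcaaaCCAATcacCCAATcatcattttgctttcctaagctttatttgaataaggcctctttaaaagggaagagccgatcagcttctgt
Hist1h2bg: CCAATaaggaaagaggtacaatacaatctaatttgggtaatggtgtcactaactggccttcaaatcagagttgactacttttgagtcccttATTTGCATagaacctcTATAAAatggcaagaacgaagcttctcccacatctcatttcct

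Hist1h1c and Hist1h1t both held the H1 box and a CCAAT box, although one was marked throughout and the other nowhere. Hist1h1a held a TATA box and a CCAAT box and no exact H1 box. Hist1h2bg held an octamer, a TATA box and a CCAAT box, while Hist1h2bj held 4 CCAAT boxes in this stretch and neither the octamer nor the TATA box. Neither the H1 box nor the CCAAT box thus separated the marked from the unmarked H1 genes.

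Genes that make or process histone mRNA were marked almost throughout. Of 18 such genes, 15 were marked in replicate 1, 18 in replicate 2, 18 by H3K4me2, 16 in fibroblasts, 17 in WT and 17 in the double deletion. Npat, which encodes the organiser of the histone locus body, had ranks of 26.6% and 28.8% in replicates 1 and 2, 13.7% in H3K4me2, 45.7% in fibroblasts, 20.4% in WT and 22.8% in the double deletion. Slbp, which encodes the stem-loop binding protein, had ranks of 19.5%, 3.14%, 10.5%, 22%, 4.94% and 3.79% in the same order. The genes that differed between lists were Lsm11, of the U7 snRNP, which lacked a peak in replicate 1, Ccne1, a cyclin E gene, which lacked one in replicate 1 and fibroblasts, and Zfp473, whose protein works in histone pre-mRNA processing, which was marked in replicate 2 and by H3K4me2 only. The nearest peaks to Zfp473 in the 4 other lists were 1601 to 1839 bp from its TSS. Replicate 2 was read with the GRCm38 start and the other lists with the mm9 start. Whether these starts differ for Zfp473 was not tested, so its value in replicate 2 is uncertain.

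The replication-independent histone genes, which encode variants made throughout the cell cycle, were marked at 8, 9, 9, 8, 9 and 9 of 10 promoters in replicate 1, replicate 2, H3K4me2, fibroblasts, WT and the double deletion. H2afj, an H2A variant gene, lacked a peak in fibroblasts and H1fx, a linker histone variant gene, lacked one in replicate 1. H3f3b, one of the genes of H3.3, had its nearest peaks 1180 to 2193 bp from the annotated TSS and so counted as unmarked in all lists. H3f3a, the other H3.3 gene, was marked in all 6. None of the 10 (0) was marked in WT and the double deletion and in neither replicate.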

How the data were processed

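H3K27ac and H3K4me2 ChIP-Seq peak lists of 6 mouse libraries were used as deposited. Per the methods, the authors trimmed paired-end reads with fastp, mapped them with Bowtie2 2.4.4 to mm9 and called peaks in each library with MACS2 2.2.4 against input. Gene positions were used to check which build a list was on, and replicate 2 was on GRCm38. The authors' score ranks peaks within a list, and in the lists of replicate 2, WT and the double deletion the score is the deposited −log10 q multiplied by 10. MACS2 as run by the authors also wrote each peak's fold enrichment over local background, −log10 p and −log10 q there. The lists of replicate 1, H3K4me2 and fibroblasts have no fold enrichment or q-value and a lowest score of 50. The lowest score was 13 in replicate 2 and 20 in WT and the double deletion. The lists thus differ in form, although the methods describe 1 procedure for all. Scores were not compared between lists.

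Genes came from GENCODE vM1 (mm9, 22380 protein-coding genes) and RefSeq GRCm38.p6, matched by symbol (18919) or synonym (2144). A peak overlapping the window of 1 kb around a TSS by at least 1 bp marked the gene. Chromosomes 1 to 19 and X were used, with Python 3.11.15, pandas 2.3.3, numpy 2.4.6 and scipy 1.17.1. Scripts were tested on simulated data. No test across samples was run. Genes named are those on 1 side of a comparison (all of them, beyond the limit of 12 set at first), the 3 best-ranked per list, the Hist3, Hist4 and testis genes, those in no list, those at the widest peaks, and listed genes that differed between lists; other genes were named after their values were seen. The members and gene lists were chosen with earlier results of these data known. The repeat counts, the position of peaks, the group marked in WT and the double deletion alone, the synonym matching, the printed sequences and the exclusion of Hist1h2al from the Hist1 span were chosen after the data were seen.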

Additional observations from a re-analysis of the deposited data

How the results depend on the processing

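Of 113 values recomputed for 12 results, 77 stayed close to the reported value and 36 moved. Several comparisons changed order. Requiring the peak to cover the TSS lowered the marked share to 20.1% in chondrocyte H3K27ac, 23.9% in fibroblasts and in the double deletion, 35.8% in WT and 50.7% for H3K4me2, and all genes stood higher in the 5 H3K27ac lists (30.3%, 25.8%, 38.4%, 39.8% and 32.6% in replicates 1 and 2, fibroblasts, WT and the double deletion). The higher-scoring 50% of each list gave 35.1% in chondrocyte H3K27ac, 59.7% for H3K4me2 and 22.4% in fibroblasts, with replicate 2 and fibroblasts below all genes, and 19454 top peaks per list gave 32.8% for H3K4me2, also below all genes. In chondrocyte H3K27ac the share was 47.0% with a window of 500 bp and 34.3% with mm9 positions for replicate 2, and 53.7% to 59.7% without 1 replicate.

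Genes marked in WT and not in the double deletion numbered 1 within 500 bp, 4 within 2 kb, 8 with the TSS covered, 6 with the higher-scoring 50% and 0 without genes over 50% repeated. Those in WT and the double deletion and in neither replicate numbered 4 with the TSS covered and 8 by promoter group, and 17 to 20 with 1 replicate left out. Those in both replicates and not in fibroblasts numbered 0 with the TSS covered, 7 with the higher-scoring 50%, 1 with equal numbers of peaks, 18 with WT in place of the replicates and 3 without repeated genes. Leaving out 1 replicate gave 4 to 6. The reverse numbered 2 within 500 bp, with the TSS covered or by promoter group, 1 with the higher-scoring 50%, 0 with WT in place and 4 without repeated genes, and 6 to 8 without 1 replicate. Genes with H3K4me2 and H3K27ac in neither replicate numbered 1 with equal numbers of peaks, 9 by promoter group and 2 with WT in place. Those with H3K27ac in both and no H3K4me2 numbered 3 with the higher-scoring 50%, 11 with equal numbers, 3 with WT in place and 0 to 1 without 1 replicate. The cause was not tested. No paired analysis was possible because only 1 group had replicates. Read depth is unknown, so a missing peak can mean too few reads or no mark.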

Other observations

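The genes of DNA replication, 13 in number, were marked at 11 promoters in replicate 1, 12 in replicate 2, 13 by H3K4me2, 12 in fibroblasts and 13 each in WT and the double deletion. Mcm3, a subunit of the replicative helicase, lacked a peak in replicate 1 and in fibroblasts, and Pole, the catalytic subunit of DNA polymerase epsilon, lacked one in replicates 1 and 2. The annotated histone pseudogenes Hist2h3c2, Hist3h2bb-ps and Hist1h2aj, which are not protein-coding and were not counted, had a peak within reach of their TSS in all 5 lists on mm9. Hist3h2bb-ps starts beside Hist3h2a and Hist1h2aj beside Hist1h2bm. With Hist1h2al included, the Hist1 span held 223 other protein-coding genes, of which 82 were marked in replicate 1, 73 in replicate 2, 122 by H3K4me2, 83 in fibroblasts, 87 in WT and 81 in the double deletion.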
